A study of Rattus norvegicus with 192 samples.

Results

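The comparison concerned hypothalamus of rats that received PFOS together with vancomycin, set against hypothalamus of rats that received vancomycin alone. The members were the hypothalamus libraries that the labels place in these groups and that held at least 100000 counts. They were 11 combination libraries and 12 vancomycin libraries, 23 of the 24 made for the pair and of 192 in the series. The library left out belonged to the combination and held 1280 counts. The animals were adult wild-type male Crl:CD(SD) rats, lived under a reversed light cycle and were dosed by gavage once a day for 7 days, from postnatal day 56 to 62. Daily doses per kg were 3 mg of PFOS with 8 mg of vancomycin in the combination group, and 8 mg of vancomycin in the vancomycin group. A further 12 hypothalamus libraries came from rats given 3 mg PFOS per kg per day and 12 from rats given the corn oil vehicle. RNA was counted at the 3′ end by BRB-seq, a bulk method that tags polyadenylated RNA with a barcode in each well and then pools the wells. The labels do not state that every library came from a separate rat, so the p-values below measure the spread between these libraries.

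PFOS, perfluorooctane sulfonate, is a persistent surfactant that activates lipid-sensing nuclear receptors in rodent liver and lowers circulating thyroid hormone in rats. Vancomycin is an antibiotic that is poorly absorbed from the gut and acts mainly on gut bacteria when given by mouth. The comparison therefore addresses what PFOS does in brain tissue of animals whose gut bacteria were exposed to an antibiotic. The hypothalamus makes thyrotropin-releasing hormone, which drives the pituitary and the thyroid, and it reads thyroid hormone back through transporters, a deiodinase and nuclear receptors. It also holds the neurons that make oxytocin, vasopressin and the feeding peptides, among astrocytes, oligodendrocytes, microglia and vessels.

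Depth differed between the groups. Total counts were 172700, 531350 and 832058 (lowest, median and highest) in the combination libraries, against 352901, 751640.5 and 1035649 in the vancomycin libraries. The mean in combination libraries was 0.719 times that in vancomycin libraries (two-sided permutation test with 100000 resamples, p = 0.0168), and 10 of 11 combination libraries lay below the vancomycin mean. The combination filled plate row D and vancomycin row B, so row and treatment cannot be told apart. Of the 11 combination libraries, 4 carried a 6-base well barcode with other than the usual 1 G or C base, and 0 of the 12 vancomycin libraries did. The thyroid libraries of the same treatments carried the same barcodes on the other plate. For that reason counts of calls are given without and with the log2 of the total counts as a covariate of the model. Markers of hypothalamus were present: Trh, the gene of thyrotropin-releasing hormone, measured 188, 250 and 283 CPM (counts scaled to a common library total) in combination libraries and 150, 195 and 259 CPM in vancomycin libraries. Genes of neurons (Snap25, Tubb3), oligodendrocytes (Mbp), astrocytes (Slc1a3, Aldoc), microglia (Csf1r, Aif1) and the neuropeptides Oxt, Pmch and Hcrt were counted in every library of both groups. The neuronal gene Rbfox3 was at 0 in 2 combination and 0 vancomycin libraries. The microglial gene P2ry12 was at 0 in 3 combination and 2 vancomycin libraries. Of the choroid plexus genes Clic6 was at 0 in every library of both groups, while Folr1 was counted in every library, with medians of 9.43 CPM in combination libraries and 11.1 CPM in vancomycin libraries. Of the ependymal and tanycyte genes Rax had a median of 0 in both groups, while Ccdc153 (medians of 45.8 CPM in combination and 54.6 CPM in vancomycin libraries) and Vim (74.8 and 84.5 CPM) were counted in every library. Growth hormone (Gh1), a pituitary transcript, stood at 3613 to 5871 CPM in combination libraries and 3561 to 5325 CPM in vancomycin libraries. The pituitary genes Prl, Tshb, Cga and Lhb were also counted in every library of both groups. Their medians were 237, 220, 441 and 119 CPM in combination libraries and 238, 176, 433 and 142 CPM in vancomycin libraries. The source of these pituitary transcripts was not tested.

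Among 6596 genes tested with edgeR's quasi-likelihood test, 516 (7.82%) differed at an adjusted p below 0.05, 194 (2.94%) of them higher and 322 (4.88%) lower in combination hypothalamus. "Rose", "fell" and "called" below refer to that threshold, with the Benjamini-Hochberg adjustment over all genes tested. With log2 total counts in the model 121 (1.83%) were called, 23 (0.349%) higher and 98 (1.49%) lower. In both fits 119 genes (1.8%) were called, 22 higher (0.334%) and 97 lower (1.47%). When only libraries of at least 500000 counts were kept (n = 8 against 11), 299 were called without the covariate and 0 with it, where 811 genes had an unadjusted p under 0.05. The changes were small. The median log2 fold change was 0.35 among the 194 rises and -0.50 among the 322 falls, and over all tested genes it was 0.00 without and -0.01 with the covariate. The falls called in both fits were abundant transcripts, with a median level of 1143 CPM in vancomycin libraries, where the rises had a median of 294 CPM and all tested genes 40.7 CPM (3′ counts, which are not scaled by length). Of the 97 falls, 54 were members of the list of cytosolic ribosomal protein genes and 43 were others. The others included Rpl35al1, Rpl36al and Rpl37a-ps1, which bear ribosomal protein names but which the list did not hold. Of the 119 genes, 98 were also called in the same direction under each of 12 other settings of the fit without the covariate, 15 higher and 83 lower. The 2 genes called only with the covariate were Alad, a haem synthesis enzyme that was higher by 0.31 on the log2 scale (adjusted p = 0.0478 in edgeR), and Ndrg2, which is abundant in astrocytes and fell by 0.25 (adjusted p = 0.0126). These 2 were chosen after their values were seen. A single gene, Plaat3, had every combination library below every vancomycin library (0.0152% of tested genes), and 0 genes had every one above.

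**Figure D1:**
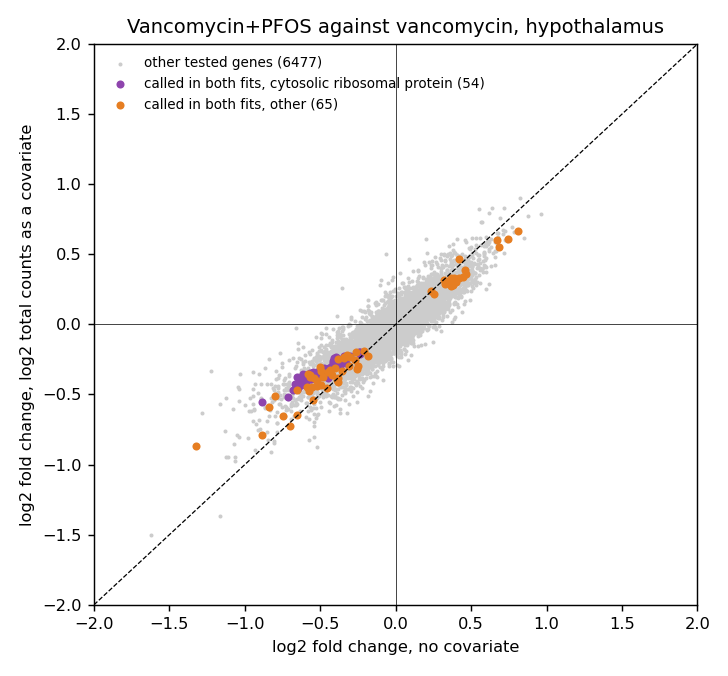
Log2 fold changes of 6596 genes in vancomycin+PFOS against vancomycin hypothalamus, without a covariate (horizontal axis) and with log2 total counts as a covariate (vertical axis), the dashed line marking equal values. The 119 genes called in both fits are coloured, 54 of them as members of the cytosolic ribosomal protein list. Rpl35al1, Rpl36al and Rpl37a-ps1 are not on that list and are coloured as other genes. Most points on the falling side lie above the line, closer to 0 with the covariate.

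The genes of the cytosolic ribosome were lower as a group in combination hypothalamus. Ribosomal proteins of the large (Rpl) and small (Rps) subunit assemble with ribosomal RNA into the machine that makes protein, and their genes are transcribed at high rates from promoters that start within a run of pyrimidines. Of 80 tested members of the list, 0 rose and 70 fell, and 54 fell with the covariate, beside 4.88% and 1.49% of all tested genes. The median log2 fold change was -0.42 without and -0.28 with the covariate, against 0.00 and -0.01 for all tested genes. The falls covered both subunits. In the large subunit 41 of 47 members fell and in the small subunit 29 of 33, and with the covariate 31 and 23 did. Among the 10 members that did not pass were Rpl14, Rpl22l1, Rpl3, Rpl35, Rpl41, Rps14, Rps19l2, Rps27 and Rps27l. The counts under the 12 other settings of the fit without the covariate lay between 61 and 72, and with the covariate 0 fell at a minimum depth of 500000. Many ribosomal protein genes have near-identical processed copies in the genome, so how reads were divided among copies is uncertain.

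Rps12, a small subunit protein, measured 323, 372 and 599 CPM (lowest, median and highest) in combination libraries, against 385, 784 and 1115 CPM in vancomycin libraries. Its log2 fold change was -0.89 ± 0.18 (SE; edgeR adjusted p = 0.00134), and -0.55 ± 0.15 with the covariate (adjusted p = 0.0395). The ranges overlapped, and the highest combination library stood below the median of vancomycin. Rpsa, the small subunit protein that doubles as a laminin receptor, measured 519, 632 and 842 CPM in combination libraries and 641, 1147 and 1402 CPM in vancomycin libraries. It fell by 0.68 ± 0.14 on the log2 scale (edgeR adjusted p = 0.00121; 0.0422 with the covariate), and all 11 combination libraries lay below the vancomycin mean. Rpl39, one of the smallest large subunit proteins, measured 132, 185 and 262 CPM in combination libraries against 167, 355 and 401 CPM in vancomycin libraries, and fell by 0.71 ± 0.15 (adjusted p = 0.00122; 0.032 with the covariate). Rpl24 fell by 0.67 ± 0.13 (adjusted p = 0.000757; 0.0133 with the covariate), with 785, 1101 and 1543 CPM in combination libraries and 1043, 1838 and 2119 CPM in vancomycin libraries. In all 4 genes some of the vancomycin libraries reached down into the combination range. The smallest p-values of the list belonged to Rpl21, Fau, Rps25 and Rps29, with folds on the log2 scale of -0.43, -0.45, -0.37 and -0.65 and an adjusted p of 0.000227 each. With the covariate the adjusted p was 0.00314 for each of these 4.

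The start regions of the ribosomal protein genes are shown because the falls ran together across them. Each line gives 90 bases of the RefSeq promoter on the GRCr8 assembly, 60 before and 30 from the first annotated start, read 5′ to 3′ on the gene's strand. Capitals mark runs of at least 8 bases, each C or T, that reach within 10 bases of the start. The first 5 are the largest falls called in both fits that hold such a run, Rps12 and Rpl39 are the largest that hold none within that distance, and Eef1a1 is a translation factor that fell.
Rpsa: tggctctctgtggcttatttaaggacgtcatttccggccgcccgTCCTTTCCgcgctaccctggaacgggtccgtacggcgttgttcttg
Rps15: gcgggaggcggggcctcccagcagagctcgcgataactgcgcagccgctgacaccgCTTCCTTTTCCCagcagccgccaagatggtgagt
Rps23: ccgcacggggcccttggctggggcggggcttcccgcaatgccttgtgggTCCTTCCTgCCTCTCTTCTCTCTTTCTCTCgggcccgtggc
Rpl10: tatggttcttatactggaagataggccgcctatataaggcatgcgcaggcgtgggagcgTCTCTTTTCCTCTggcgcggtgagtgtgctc
Rpl22: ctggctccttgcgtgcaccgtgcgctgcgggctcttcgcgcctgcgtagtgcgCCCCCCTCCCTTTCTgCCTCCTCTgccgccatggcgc
Rps12: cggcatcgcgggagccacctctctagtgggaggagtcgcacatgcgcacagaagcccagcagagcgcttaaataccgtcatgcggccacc
Rpl39: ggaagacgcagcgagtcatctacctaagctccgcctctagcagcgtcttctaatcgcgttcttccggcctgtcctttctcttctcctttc
Eef1a1: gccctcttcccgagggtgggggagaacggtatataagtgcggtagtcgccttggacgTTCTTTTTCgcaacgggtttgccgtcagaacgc
The regions lie at chr8:128728819-128728908 on the plus strand for Rpsa, chr7:10068086-10068175 on the minus strand for Rps15, chr2:23814457-23814546 on the plus strand for Rps23, chrX:157205790-157205879 on the plus strand for Rpl10 and chr5:168117901-168117990 on the plus strand for Rpl22. Those without a run within that distance lie at chr1:23500015-23500104 on the plus strand for Rps12 and chrX:121195867-121195956 on the minus strand for Rpl39, and that of Eef1a1 lies at chr8:88225040-88225129 on the minus strand. In Rpl39 a run of at least 19 bases began at base 12, counted from 1 at the start, just outside the limit. It reached the last base shown, so its full length is not given. The longest run near the start was 21 bases in Rps23, 15 in Rpl22, 13 in Rpl10 and 12 in Rps15. A run was present in 43 of the 63 tested members of the ribosomal protein list with a promoter in the table (68.3%). It was present in 51 of 206 genes outside that list that fell (24.8%) and in 13 of 158 genes that rose (8.23%). It was present in 681 of 5343 tested genes (12.7%) and in 3615 of 27457 promoters of the table (13.2%). On the other strand, where such a run reads as A or G, the shares were 1.59%, 7.77%, 17.7%, 12.6% and 14.7% in the same order. The shares describe letters at an annotated start, and genes with several annotated starts were read at the first.

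Summed over the list, cytosolic ribosomal protein genes took 8.53%, 9.93% and 11.6% (lowest, median and highest) of a library's counts in the combination, against 10.003%, 12.5% and 13.4% under vancomycin. Under PFOS alone the share spanned 7.86% to 11.96% and under vehicle 10.4% to 14.2%. The share also moved with depth in part, as the shallowest library of each of the combination, vancomycin and vehicle groups had the lowest share of its group. In the combination the next lowest was close, at 8.54% against 8.53%. Under PFOS it did not, since the shallowest library (379843 counts) held 10.3% and the lowest share, 7.86%, was that of a library with 1028625 counts. Among libraries of 500000 to 850000 counts, the combination had 8.54%, 10.3% and 11.6% (n = 8) and vancomycin 10.4%, 12.3% and 13.2% (n = 8). The ranges overlapped, and median depth still differed within these limits, at 569486 counts in the combination and 695510 under vancomycin. The part of depth in the falls was not tested beyond the covariate.

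**Figure D2:**
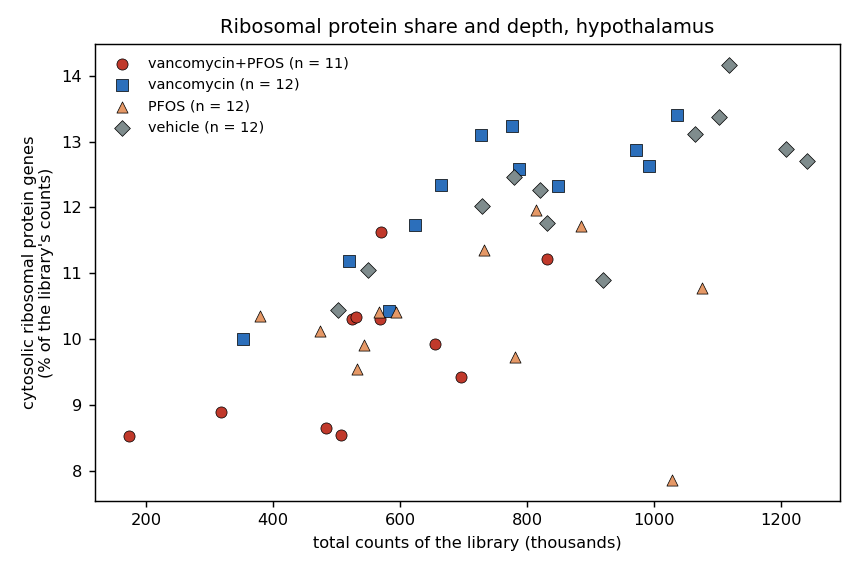
Share of each hypothalamus library's counts in cytosolic ribosomal protein genes (vertical axis, percent) against the library's total counts (horizontal axis, in units of 1000 counts), with 1 point per library. Combination libraries span 8.53% to 11.6% and vancomycin libraries 10.003% to 13.4%, and within both groups deeper libraries tend to hold larger shares.

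Factors that work beside the ribosome also held falls. Of 59 tested translation factors 0 rose and 9 fell (6 without the shallowest combination library), and 4 fell with the covariate, beside 4.88% and 1.49% of all tested genes. Eef1a1, which carries aminoacyl-tRNA to the ribosome, measured 1906, 2445 and 3206 CPM in combination libraries, against 2436, 3650 and 4677 CPM in vancomycin libraries. It fell by 0.57 ± 0.11 on the log2 scale (edgeR adjusted p = 0.000904; 0.0188 with the covariate). Eef2, the translocase of elongation, fell by 0.21 ± 0.05 (adjusted p = 0.00383), Eif3h by 0.30 ± 0.06 (adjusted p = 0.00104) and Eif2b2 by 0.66 ± 0.15 (adjusted p = 0.00232), each also with the covariate. Eif2b2 was too low to test after thinning. The median over the list was -0.04, against 0.00 over all tested genes. Of 69 tested mitochondrial ribosomal proteins, which serve a separate ribosome, 4 rose and 2 fell, beside 2.94% and 4.88% of all tested genes. With the covariate 2 rose, beside 0.349% of all tested genes, and 0 fell. Mrpl17 was among the rises, with 290, 441 and 585 CPM in combination libraries and 335, 371 and 442 CPM in vancomycin libraries and a rise of 0.24 ± 0.07 (adjusted p = 0.0149). That call was lost with barcode GC as a covariate, without the libraries of unusual barcode GC, after thinning to a common depth and with no filter on low counts, as was that of Mrpl1.

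The largest rises called in both fits were those of Slc3a1, Coa5, B4galt6 and Pias3. Slc3a1, the heavy chain of a transporter of cystine and basic amino acids, measured 800, 1148 and 1462 CPM in combination libraries, against 379, 597 and 974 CPM in vancomycin libraries. Its log2 fold change was 0.81 ± 0.18 (SE; edgeR adjusted p = 0.00225), and 0.67 ± 0.17 with the covariate (adjusted p = 0.0339). All 11 combination libraries stood above the vancomycin mean, while the top of vancomycin reached into the combination range. Coa5, an assembly factor of cytochrome c oxidase, measured 393, 531 and 698 CPM in combination libraries, against 244, 318 and 483 CPM in vancomycin libraries, and rose by 0.75 ± 0.16 (adjusted p = 0.00225; 0.0316 with the covariate). B4galt6, which makes lactosylceramide in the brain, measured 267, 505 and 577 CPM in combination libraries, against 155, 284 and 383 CPM in vancomycin libraries, and rose by 0.69 ± 0.14 (adjusted p = 0.0017; 0.0316 with the covariate). In B4galt6, 9 of 11 combination libraries stood above the vancomycin mean. Pias3, a SUMO ligase that inhibits STAT3, measured 21.2, 35.2 and 46 CPM in combination libraries and 13, 21.7 and 35.2 CPM in vancomycin libraries. It rose by 0.67 ± 0.16 (adjusted p = 0.00472; 0.0435 with the covariate), and after thinning to a common depth it was too low to test.

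The next rises by size included Usp5, Ube2v2 and Pja1. The deubiquitinase Usp5 rose by 0.47 ± 0.10 (edgeR adjusted p = 0.00111), with 188, 264 and 314 CPM in combination libraries and 143, 194 and 229 CPM in vancomycin libraries. Ube2v2, a partner of the ubiquitin-conjugating enzyme Ube2n, measured 293, 409 and 608 CPM in combination libraries, against 260, 299 and 368 CPM in vancomycin libraries, and rose by 0.45 ± 0.09 (adjusted p = 0.000757). The ubiquitin ligase Pja1 measured 343, 410 and 562 CPM in combination libraries and 251, 327 and 356 CPM in vancomycin libraries, a rise of 0.40 ± 0.08 (adjusted p = 0.000904). All 11 combination libraries lay above the vancomycin mean for Usp5 and Pja1, and 10 did for Ube2v2. The proteasome ATPase Psmc1 rose by 0.37 and was called in both fits too. Of 45 tested proteasome subunits 5 rose and 1 fell, beside 2.94% and 4.88% of all tested genes, and with the covariate Psmc1 alone was called. The base of the proteasome held 3 of the rises, the ATPases Psmc1, Psmc3 and Psmc4, with log2 fold changes of 0.37, 0.29 and 0.24 (adjusted p = 0.0028, 0.00459 and 0.023). All 11 combination libraries lay above the vancomycin mean for each of them. The subunit that fell was Psmd3, by 0.40 ± 0.12 (adjusted p = 0.0277). The calls of Psmc3, Psmc4 and Psmd3 were lost with barcode GC as a covariate.

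The remaining large rises were Dld, Cd200 and Mrpl1. Dld, a subunit shared by the mitochondrial 2-oxo acid dehydrogenases, measured 141, 185 and 256 CPM in combination libraries, against 101, 134 and 165 CPM in vancomycin libraries, a rise of 0.46 ± 0.10 (edgeR adjusted p = 0.0026). Cd200, a neuronal surface protein that restrains microglia through its receptor, measured 221, 294 and 368 CPM in combination libraries, against 177, 214 and 279 CPM in vancomycin libraries, a rise of 0.42 ± 0.10 (adjusted p = 0.00275). With the covariate its adjusted p was 0.0499. Mrpl1 measured 38.6, 59.4 and 77.8 CPM in combination libraries and 34.7, 41.6 and 62.6 CPM in vancomycin libraries, a rise of 0.42 ± 0.12 (adjusted p = 0.0238). The 22 rises also held genes of membrane traffic, among them Vps41, Tmed9, Vmp1 and the proton pump subunit Atp6v1c1, with log2 fold changes from 0.32 to 0.38. The calls of Vps41, Vmp1 and Atp6v1c1 were lost with barcode GC as a covariate.

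Outside the ribosome, the largest fall called in both fits was that of Ybx3, a cold-shock-domain protein that binds mRNA. It measured 10.2, 17.2 and 58.9 CPM in combination libraries, against 22.1, 67.5 and 98.7 CPM in vancomycin libraries. The log2 fold change was -1.32 ± 0.29 (edgeR adjusted p = 0.00289), and -0.87 ± 0.22 with the covariate (adjusted p = 0.0274). The vancomycin libraries spread widely, and the lowest of them lay within the combination range. Raly, an hnRNP that binds RNA, measured 15.3, 30.3 and 45.5 CPM in combination libraries, against 40.9, 59.1 and 70.5 CPM in vancomycin libraries. It fell by 0.88 ± 0.15 (adjusted p = 0.000227) and by 0.79 ± 0.16 with the covariate (adjusted p = 0.00314). The overlap of the groups was narrow, since only the top of the combination range passed the lowest vancomycin library. Gnl1, a GTP-binding protein, fell by 0.80 ± 0.18 (adjusted p = 0.0033) with 39.4, 107 and 175 CPM in combination libraries and 111, 191 and 265 CPM in vancomycin libraries. Tsc22d4, a transcriptional regulator, fell by 0.75 ± 0.17 (adjusted p = 0.0033), with 17.2, 33.2 and 56.9 CPM in combination libraries and 41.5, 52.1 and 81.3 CPM in vancomycin libraries. After thinning to a common depth Tsc22d4 was too low to test. For Gnl1 0 and for Tsc22d4 1 of the 11 combination libraries lay above the vancomycin mean. Timp4, an inhibitor of matrix metalloproteinases, measured 20.3, 30.1 and 60.6 CPM in combination libraries, against 45, 54.6 and 74.8 CPM in vancomycin libraries. It fell by 0.70 ± 0.16 (adjusted p = 0.00225), and by 0.73 ± 0.16 with the covariate (adjusted p = 0.00883).

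**Figure D3:**
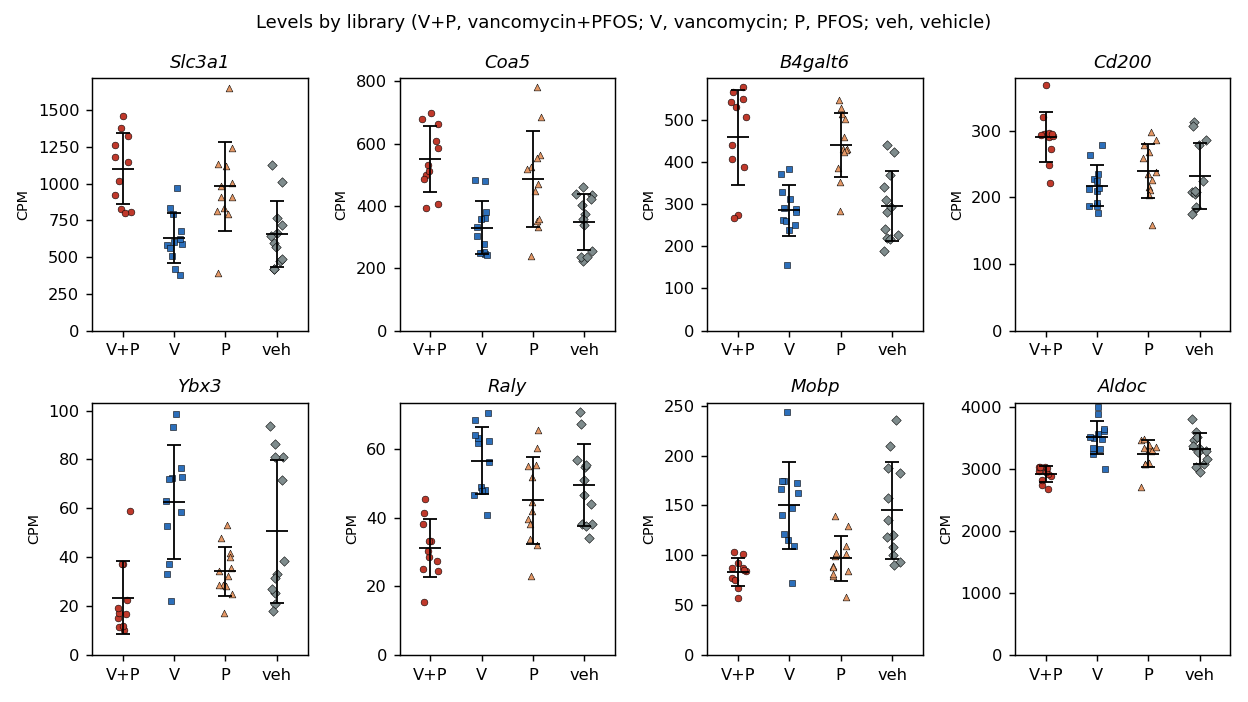
CPM in each hypothalamus library for 4 genes that rose (Slc3a1, Coa5, B4galt6, Cd200) and 4 that fell (Ybx3, Raly, Mobp, Aldoc), with mean and SD as bars and n = 11 for the combination and 12 for each other group. Slc3a1 spans 800 to 1462 CPM in combination libraries and 379 to 974 CPM in vancomycin libraries, and Raly 15.3 to 45.5 CPM and 40.9 to 70.5 CPM.

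Of the astrocyte genes 7 fell in combination hypothalamus and the others did not pass. Astrocytes clear transmitter, buffer ions and take up thyroid hormone for the neurons around them. Of 19 tested members of the list 13 had a negative log2 fold change and 6 a positive one, 0 rose and 7 fell, and 5 fell with the covariate, beside 4.88% and 1.49% of all tested genes. The 5 were Aldoc, Cst3, Mlc1, S100b and Clu. Aldoc, an aldolase of brain, measured 2672, 2946 and 3041 CPM in combination libraries, against 3000, 3507 and 4003 CPM in vancomycin libraries. It fell by 0.27 ± 0.05 (edgeR adjusted p = 0.000238), and by 0.26 ± 0.05 with the covariate (adjusted p = 0.00314). The upper end of the combination range just passed the lowest vancomycin library. Cst3, a secreted inhibitor of cathepsins, measured 2669, 3189 and 4514 CPM in combination libraries, against 3501, 5067 and 6363 CPM in vancomycin libraries, and fell by 0.59 ± 0.12 (adjusted p = 0.00111). Mlc1, a membrane protein of astrocyte end-feet, measured 68.3, 87.5 and 126 CPM in combination libraries and 86.8, 140 and 155 CPM in vancomycin libraries, and fell by 0.50 ± 0.11 (adjusted p = 0.00241). Apoe, the lipid carrier that astrocytes secrete, fell by 0.71 ± 0.16 without the covariate (adjusted p = 0.00277), and its adjusted p was 0.0677 with it. Other defining genes of astrocytes did not pass. Slc1a2 had a log2 fold change of -0.54 (adjusted p = 0.179), Gfap one of -0.22 (adjusted p = 0.574), Glul one of 0.14 (adjusted p = 0.5), Gja1 one of 0.10 (adjusted p = 0.672) and Slc1a3 one of 0.08 (adjusted p = 0.677). The summed share of the list was 2.44%, 2.72% and 3.10% of counts in combination libraries and 2.82%, 3.10% and 3.56% in vancomycin libraries. Across the 12 other settings of the fit without the covariate 4 to 7 members fell. S100b lost its call with all libraries kept, at a minimum depth of 500000 and without the libraries of unusual barcode GC, and Clu lost it under several settings, among them without the shallowest combination library. In bulk tissue, fewer cells of a type and less RNA per cell cannot be told apart.

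Some antioxidant and metal-binding genes fell. In the list of NRF2 and oxidative stress genes, which guard cells against peroxides, 0 of 22 tested members rose and 7 fell, and 4 fell with the covariate, beside 4.88% and 1.49% of all tested genes. Mt3, the brain metallothionein, measured 1427, 1874 and 2473 CPM in combination libraries, against 2192, 2570 and 3108 CPM in vancomycin libraries, and fell by 0.45 ± 0.07 (edgeR adjusted p = 0.000227; 0.00314 with the covariate). Prdx6, a peroxiredoxin rich in astrocytes, measured 56.9, 95.2 and 133 CPM in combination libraries, against 111, 138 and 154 CPM in vancomycin libraries, and fell by 0.55 ± 0.10 (adjusted p = 0.00037; 0.00314 with the covariate). For both genes all 11 combination libraries lay below the vancomycin mean. Gpx1 and Sod1, a glutathione peroxidase and a superoxide dismutase, fell by 0.56 ± 0.12 and 0.50 ± 0.11 (adjusted p = 0.00179 and 0.00205). Gpx4, Txn1 and Mt2A fell without the covariate only, with log2 fold changes of -0.27, -0.26 and -0.57, and without the shallowest combination library 4 members of the list fell. Nqo1, a standard target of NRF2, did not pass (0.24, adjusted p = 0.376).

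Among oligodendrocyte genes, 0 of 25 tested members rose and 3 fell, and 1 fell with the covariate, beside 4.88% and 1.49% of all tested genes. Mobp, a protein of compact myelin, measured 56.9, 85.5 and 104 CPM in combination libraries, against 71.8, 155 and 244 CPM in vancomycin libraries. It fell by 0.84 ± 0.16 (edgeR adjusted p = 0.000675), and by 0.59 ± 0.14 with the covariate (adjusted p = 0.0119). All 11 combination libraries lay below the vancomycin mean, and the lowest vancomycin library lay within the combination range. Mbp, myelin basic protein, fell by 0.57 ± 0.14 (adjusted p = 0.00581), with 1899, 2380 and 2957 CPM in combination libraries and 2192, 3536 and 6077 CPM in vancomycin libraries. Its adjusted p was 0.119 with the covariate, and that of Mag, which fell by 0.60 ± 0.18 without it, was 0.206. The summed share of the list did not follow these 3 genes, with 1.01%, 1.13% and 1.52% of counts in combination libraries and 0.954%, 1.15% and 1.66% in vancomycin libraries. Of 7 tested genes of oligodendrocyte precursors 0 were called.

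Neuronal lists held calls in both directions without the covariate, where 2.94% of all tested genes were higher and 4.88% lower. Among 19 tested general neuronal genes 2 rose and 0 fell. Of the 19, 4 had a positive and 15 a negative log2 fold change, with a median of -0.07. Gap43, a growth cone protein, was among those that rose, by 0.21 ± 0.06 (edgeR adjusted p = 0.0224). Gap43 measured 1154, 1265 and 1441 CPM in combination libraries and 971, 1095 and 1281 CPM in vancomycin libraries, with all 11 combination libraries above the vancomycin mean. In the presynaptic list of 33 tested genes 2 rose and 5 fell (2 and 3 without the shallowest combination library). The genes of the clathrin route, which retrieves vesicle membrane, divided: the adaptor subunit Ap2m1 rose by 0.31 ± 0.08 (adjusted p = 0.00768), and the clathrin light chain Clta fell by 0.63 ± 0.15 (adjusted p = 0.0059), Bin1 by 0.73 ± 0.19 (adjusted p = 0.00909) and the dynamin Dnm3 by 1.13 ± 0.29 (adjusted p = 0.00962). Of the axonal cytoskeleton and its motors, 3 of 33 fell, Dynll1, Map1a and Sptbn1. Map1a measured 192, 257 and 359 CPM in combination libraries, against 293, 374 and 564 CPM in vancomycin libraries, and fell by 0.59 ± 0.14 (adjusted p = 0.00639; 0.0501 with the covariate). In the list of postsynaptic scaffolds and calcium signalling 1 of 19 rose, Calm2 (calmodulin), by 0.29 ± 0.07 (adjusted p = 0.00786). In that of GABA transmission 1 of 13 fell, the receptor subunit Gabra2, by 0.95 ± 0.31 (adjusted p = 0.0487), and in that of glutamate transmission 0 of 11 were called. With the covariate 0 genes of these 6 lists were called, and with barcode GC as a covariate the calls of Gap43, Calm2, Bin1, Dnm3, Sptbn1 and Gabra2 were lost. That of Gabra2 was lost without the shallowest combination library too.

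Of 32 listed genes of thyroid hormone action 17 were abundant enough to test. Among these 1 rose and 1 fell without the covariate, beside 2.94% higher and 4.88% lower of all tested genes. With the covariate 0 were called. Trh, the releasing hormone at the top of the axis, had a log2 fold change of 0.18 ± 0.16 (edgeR adjusted p = 0.546), with normalised means of 242 ± 34.3 CPM in combination libraries (SD, n = 11) and 213 ± 41.3 CPM in vancomycin libraries (n = 12). Thra, the thyroid hormone receptor alpha, measured 30.7, 50.5 and 90.9 CPM in combination libraries, against 48.8, 81.5 and 108 CPM in vancomycin libraries. It fell by 0.60 ± 0.17 (adjusted p = 0.0193), and its adjusted p was 0.191 with the covariate. Slco1a4, a transporter of the vessel wall that carries thyroid hormone and bile acids, measured 41.3, 62.8 and 86.2 CPM in combination libraries, against 29.3, 36 and 77.6 CPM in vancomycin libraries. It rose by 0.50 ± 0.15 (adjusted p = 0.0297; 0.254 with the covariate), and 9 of 11 combination libraries lay above the vancomycin mean. Both calls were also lost with barcode GC as a covariate. The deiodinase Dio2, which makes active hormone in glia, had a log2 fold change of -0.22 ± 0.20 (adjusted p = 0.541). The transporter Slco1c1, at 0.02 ± 0.15 (adjusted p = 0.965), and Slc7a5, at 0.04 ± 0.24 (adjusted p = 0.956), changed sign with the covariate.

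The genes that hormone-bound receptors act on did not pass either. Klf9, a transcription factor gene that thyroid hormone induces, measured 23, 48 and 62.6 CPM in combination libraries and 43.2, 58.5 and 136 CPM in vancomycin libraries. Its log2 fold change was -0.44 ± 0.18 (edgeR adjusted p = 0.115). Nrgn, a neuronal target of the hormone, had a log2 fold change of -0.35 ± 0.12 (adjusted p = 0.064), and Thrsp one of -0.35 ± 0.20 (adjusted p = 0.298). The nuclear receptor partner Rxrb stood at -0.81 ± 0.28 (adjusted p = 0.0583), and Rxrg at 0.43 ± 0.21 (adjusted p = 0.203). The corepressor Ncor1 and the coactivator Ncoa1 had log2 fold changes of 0.10 and 0.43 (adjusted p = 0.76 and 0.152). Crym, which binds thyroid hormone in the cytosol, was at -0.17, Slc3a2, a partner chain of amino acid transporters, at -0.14, and Pgpep1, a peptidase that can degrade thyrotropin-releasing hormone, at -0.44 (adjusted p = 0.76, 0.336 and 0.406). The other 15 listed genes were too low to test, among them the receptor Thrb with 46 counts summed over the combination libraries and 76 over the vancomycin libraries, and the deiodinase Dio3 with 0 and 1.

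Of 28 tested hypothalamic neuropeptide and granule genes 0 rose and 1 fell, beside 2.94% higher and 4.88% lower of all tested genes. Pcsk1n, the proprotein convertase inhibitor proSAAS, measured 193, 335 and 525 CPM in combination libraries, against 272, 517 and 639 CPM in vancomycin libraries, and fell by 0.56 ± 0.16 (edgeR adjusted p = 0.0245; 0.29 with the covariate). Without the shallowest combination library this call was lost. Avp, the vasopressin gene, measured 222, 271 and 597 CPM in combination libraries, against 157, 557 and 698 CPM in vancomycin libraries, and did not pass (-0.69 ± 0.30, adjusted p = 0.151). A single combination library stood above the vancomycin mean for Avp, and the full ranges overlapped. Chga and Cck also did not pass, at -0.55 and -0.90 (adjusted p = 0.0518 and 0.172). Crh, the corticotropin-releasing hormone gene, was too low to test, with 40 counts over the combination libraries and 85 over the vancomycin libraries.

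Of 78 tested nuclear genes of oxidative phosphorylation 5 rose and 11 fell, beside 2.94% higher and 4.88% lower of all tested genes, and with the covariate 0 rose and 1 fell. The one was Atp5f1e, the epsilon subunit of ATP synthase, with 453, 575 and 665 CPM in combination libraries against 543, 717 and 866 CPM in vancomycin libraries and a fall of 0.33 ± 0.07 (edgeR adjusted p = 0.00111). In that gene all 11 combination libraries lay below the vancomycin mean. Atp5mc2, Uqcrh and Cox7b fell by 0.35, 0.26 and 0.30 without the covariate only. Among glycolytic and phosphagen enzymes, named after their values were seen, Gapdh fell by 0.58 ± 0.11 (adjusted p = 0.000733) and the brain creatine kinase Ckb by 0.34 ± 0.07 (adjusted p = 0.000757). The phosphofructokinase Pfkp rose by 0.34 ± 0.08 (adjusted p = 0.00283). All 3 were called in both fits.

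Genes of the kind that PFOS is known to induce in rodent liver held no call of a rise. In the list of PPAR targets and fatty acid oxidation 0 of 19 tested members rose and 3 fell. Over all tested genes 2.94% were higher and 4.88% lower. With the covariate 1 member fell, beside 1.49% of all tested genes. Fabp5, a fatty acid carrier of brain cells, measured 149, 179 and 225 CPM in combination libraries, against 172, 281 and 349 CPM in vancomycin libraries, and fell by 0.54 ± 0.10 (edgeR adjusted p = 0.00053; 0.0164 with the covariate). The lowest vancomycin library lay within the combination range. Acadl and Eci2, enzymes of fatty acid oxidation, fell by 0.72 ± 0.20 and 0.50 ± 0.12 without the covariate only (adjusted p = 0.0132 and 0.00625). Of 13 tested genes of drug metabolism and efflux 0 were called, with Por, the P450 reductase, at -0.22 (adjusted p = 0.439). The summed share of that list was 0.165%, 0.213% and 0.258% of counts in combination libraries and 0.148%, 0.174% and 0.241% in vancomycin libraries. In cholesterol synthesis 1 of 20 rose, beside 2.94% of all tested genes. It was Sqle, by 0.33 ± 0.11 (adjusted p = 0.0478, and 0.174 with the covariate).

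In the RNA-binding list 3 of 50 tested genes rose (Sf3b2, Ddx1 and Tra2b, by 0.26, 0.26 and 0.32) and 3 fell, of which Ybx3 was also called with the covariate. Counts this small in a list of that size are near the 2.94% higher and 4.88% lower of all tested genes. Among heat shock genes 1 of 14 rose, the constitutive chaperone Hspa8, by 0.21 ± 0.07 (edgeR adjusted p = 0.0408), and 2 fell, Hsp90ab1 by 0.26 ± 0.06 and Hsp90aa1 by 0.21 ± 0.07 (adjusted p = 0.00722 and 0.0435). Among glucocorticoid-responsive genes 1 of 10 fell, Mt2A, by 0.57 ± 0.19 (adjusted p = 0.0446). Of 20 tested genes of ER folding and stress, 9 of the circadian clock and 7 immediate early genes, 0 were called. With barcode GC as a covariate the calls of Sf3b2, Ddx1, Tra2b, Hspa8, Hsp90aa1 and Mt2A were lost, and without the shallowest combination library those of Hsp90aa1 and Mt2A. With log2 total counts 0 of the heat shock and 0 of the glucocorticoid-responsive genes were called.

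Lists of markers of other cells that a hypothalamic dissection can hold had at most 1 call in each direction. Over all tested genes 2.94% were higher and 4.88% lower. Negative log2 fold changes were held by 6 of 6 tested blood genes (median -0.31), 12 of 15 of microglia and 6 of 7 of meninges. The counts were 9 of 15 for endothelium and pericytes, 6 of 8 for pituitary, 5 of 7 for tanycytes and 1 of 2 for choroid plexus. Among 15 tested microglial genes C1qb, a complement subunit, fell by 0.57 ± 0.18 (edgeR adjusted p = 0.0435), and among 15 of endothelium and pericytes Tagln, a contractile protein of vessel walls, fell by 0.84 ± 0.20 (adjusted p = 0.00516) while Slco1a4 rose. The haemoglobin gene Hbb, a sign of retained blood, fell by 0.44 ± 0.14 (adjusted p = 0.0349), with 916, 1143 and 1806 CPM in combination libraries and 1314, 1737 and 1998 CPM in vancomycin libraries. The summed blood list held 0.30%, 0.432% and 0.639% of counts (lowest, median and highest) in combination libraries. In vancomycin libraries it held 0.374%, 0.538% and 0.606%, and its part in other results was not tested. Pituitary genes had 1 call among 8 tested, Pcsk1n, which neurons share. Of 7 tested genes each of tanycytes and of the meninges, and of 2 of the choroid plexus, 0 were called. With the covariate 0 genes of these 7 lists were called, and with barcode GC as a covariate, or without the shallowest combination library, the calls of C1qb and Hbb were lost.

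**Figure D4:**
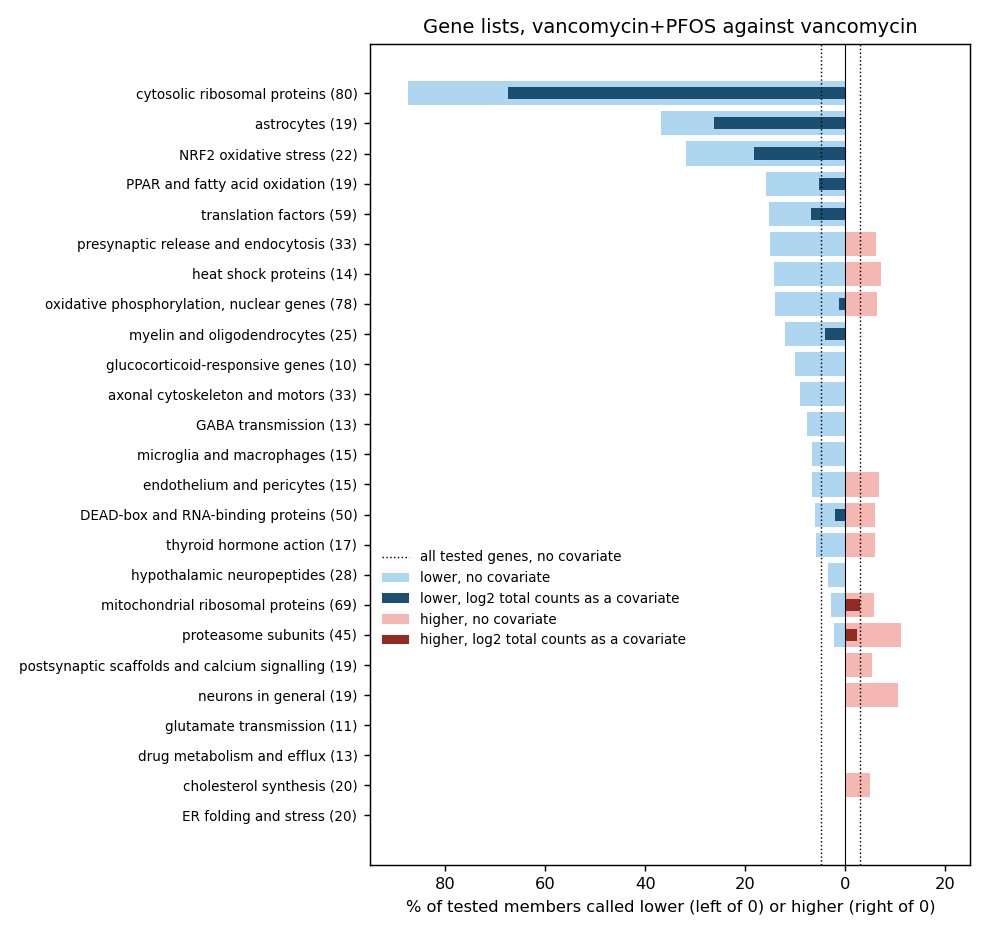
Percent of the tested members (number in brackets) of each gene list with at least 10 of them that were called lower (left of 0) or higher (right of 0) in vancomycin+PFOS against vancomycin hypothalamus, without (wide bars) and with (narrow bars) log2 total counts as a covariate. Cytosolic ribosomal proteins lead with 70 of 80 lower, followed by astrocytes with 7 of 19, and the dotted lines mark 4.88% lower and 2.94% higher among all tested genes.

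The effect of PFOS without vancomycin was read from the PFOS and vehicle libraries, which share no library with the comparison above. There 288 genes (4.37%) were called, 76 (1.15%) higher and 212 (3.21%) lower, and with the covariate 0 were higher and 2 (0.0303%) lower. Mean totals were 700530 ± 221230 counts under PFOS (SD, n = 12) and 905430 ± 245250 under vehicle (n = 12), so depth moved the same way in this pair. All 119 genes called in both fits had the same sign there without the covariate, and 118 had it with the covariate, the exception being Cd200. Of the 97 falls 60 were called lower without the covariate, and of the 22 rises 8 were called higher. Of the 80 ribosomal protein genes 52 fell under PFOS against vehicle, with a median log2 fold change of -0.30, and with the covariate 1 did. A single PFOS library, of 1028625 counts, held the lowest ribosomal share (7.86%) and few neuropeptide counts. It had 0.972 CPM of Avp, 4.86 of Oxt, 7.78 of Pmch and 32.1 of Trh, against PFOS medians of 378, 1050, 1022 and 198 CPM. The lowest Pomc value, 73 CPM (median 137), came from another library. The part of that library in this pair, in the interaction and in the shared spread was not tested. Fabp5 and Slc3a1 were called in both pairs without the covariate, with log2 fold changes of -0.49 and 0.58 under PFOS against vehicle (edgeR adjusted p = 0.00747 and 0.0395). With the covariate neither was called under PFOS against vehicle (edgeR adjusted p = 0.0717 and 0.168).

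The difference between the effects of PFOS with and without vancomycin was tested as an interaction, and 0 genes were called in edgeR, with or without the covariate. At an unadjusted p under 0.05, 278 genes were found in edgeR, 267 in DESeq2 and 394 in limma voom, and 0 were called in each. The smallest interaction p-values were those of Ptprm, Raly, Etv1, Cd1d1 and Fbl, each with an adjusted p of 0.971. Raly had a log2 fold change of -0.88 with vancomycin and -0.16 without it, a difference of -0.73 ± 0.21 (p = 0.000803 unadjusted, edgeR). Ptprm, a receptor phosphatase of cell contacts, had one of 0.39 with vancomycin and -0.47 without it. Cd1d1, which presents lipids to T cells, had 20.1, 24.4 and 28.4 CPM in combination libraries, 11.6, 16.8 and 20.5 CPM in vancomycin libraries, 8.87, 16.1 and 24.7 CPM in PFOS libraries and 11.4, 20.02 and 31 CPM in vehicle libraries. Etv1 stood at -0.51 and 0.40 and Fbl, the methyltransferase of ribosomal RNA, at 0.53 and -0.37. None of these 5 differences passed the adjustment.

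Because thyroid libraries of the same treatments carried the same barcodes, row by row, on the other plate, the genes were followed there too. Over 45 barcodes with kept libraries in both tissues, the log of total counts in hypothalamus and thyroid had a Pearson correlation of 0.74 and a Spearman correlation of 0.79. After removal of the group means, both were 0.62. In thyroid, 122 of 5091 tested genes (2.4%) were lower and 43 (0.845%) higher in the combination against vancomycin. With log2 total counts as a covariate 0 were called there in edgeR, with 421 genes at an unadjusted p under 0.05, so the thyroid calls below hold without the covariate only. Of the 97 hypothalamic falls called in both fits, 89 were tested in thyroid, 60 were lower there and 0 higher. Of the 22 rises 21 were tested, 2 were higher and 0 lower, and all 21 had a positive log2 fold change. Among all 70 falls of the ribosomal protein list, 54 were lower in thyroid, with a median log2 fold change of -0.41 (-0.24 with the covariate), and among the 198 other falls tested there 33 were. These 33 included Rpl35al1, Rpl36al and Rpl37a-ps1, which the list did not hold (edgeR adjusted p = 0.0111, 0.0461 and 0.0445). Rps12 had a log2 fold change of -0.73 in thyroid (edgeR adjusted p = 0.0156) and Rpl39 one of -0.79 (adjusted p = 0.0125). Prdx6 and Gpx1 stood at -0.32 and -0.07 there (adjusted p = 0.376 and 0.813). Mobp, Mlc1, Aldoc, Timp4 and Fabp5 were too low in thyroid to test. The library numbers in the titles also match between the 2 tissues, and the labels do not state whether they come from the same rats. Whether treatment, plate row, barcode or depth carries the shared falls cannot be told apart.

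**Figure D5:**
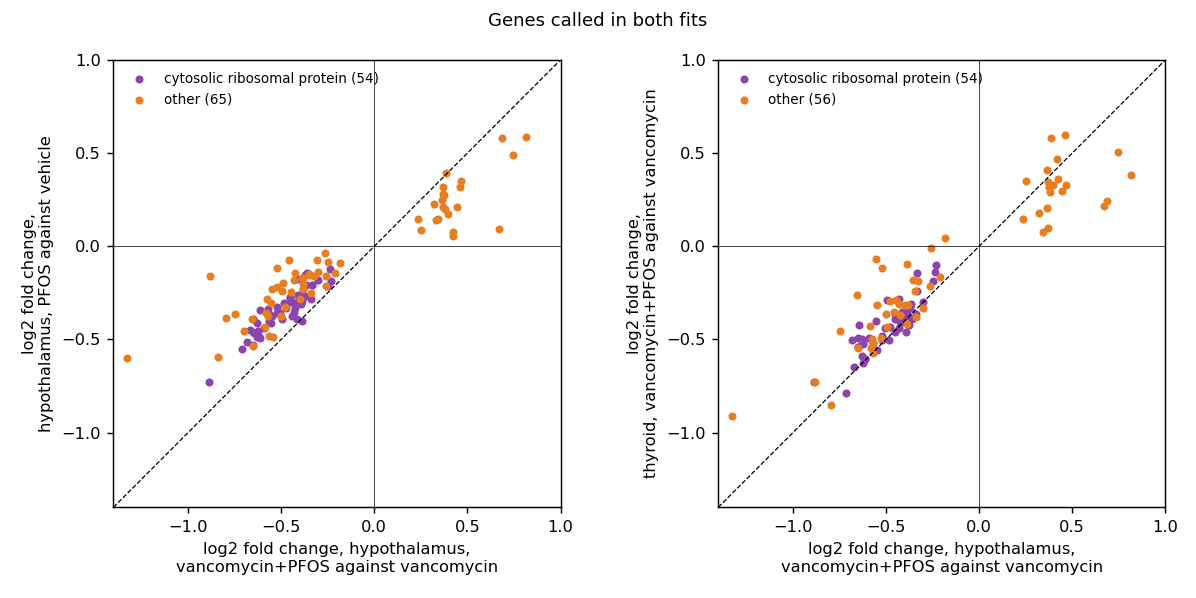
Genes called in both fits, with their log2 fold change in vancomycin+PFOS against vancomycin hypothalamus (horizontal axes) set against PFOS against vehicle in hypothalamus (left panel, 119 genes) and vancomycin+PFOS against vancomycin in thyroid (right panel, 110 genes tested there). Without the covariate all 119 keep their sign in the left panel and 109 in the right, and most falls lie above the dashed line of equal values in both panels. Colours follow the cytosolic ribosomal protein list, which does not hold Rpl35al1, Rpl36al and Rpl37a-ps1. The genes were chosen by their calls on the horizontal axes, and the part of that choice in their position beside the line was not tested.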

How the data were processed

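The deposited counts are whole numbers per gene and library, for 17483 gene names in 192 libraries. Per the submitters' processing notes the genome build was rn6 and the tools include BWA 0.7.4.4, with no role stated, and other steps are not given in the sources used here. Whether molecular identifiers were collapsed is not explained by the labels. Of the names, 15578 matched RefSeq symbols of GRCr8, 1556 a synonym and 349 neither.

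The 47 hypothalamus libraries of the 4 treatments with at least 100000 counts were fitted in 1 model (R 4.3.3, edgeR 4.0.16: filterByExpr with a minimum count of 10, TMM, robust quasi-likelihood F test), with and without centred log2 total counts. SE is the size of the log2 fold change over the square root of F. CPM are normalised with TMM, except those of the markers in the paragraph on depth, which use raw totals. Thyroid libraries were fitted alone in the same way, their covariate fit being added after the data were seen. The procedure was tested on simulated data. Alternatives used DESeq2 1.42.0, limma 3.58.1 and settings listed in the closing section. Genes were named by rule: the 10 largest rises and 10 largest falls called in both fits (mean count 10 or more where higher), up to 4 members of each of 33 lists by p, every tested gene of thyroid hormone action and 5 genes by interaction p. Members and lists were chosen with earlier results of these data known. Leaving out the shallowest combination library, and the counts of ribosomal protein falls by setting, were added after the data were seen. Other genes were named after their values were seen, and some genes that the rule names are not reported here.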

Additional observations from a re-analysis of the deposited data

How the results depend on the processing

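Counts of called genes depended on the setting more than directions did. Without the covariate 516 genes were called, 567 with DESeq2, 517 with its size factors in edgeR, 547 with only the 2 groups compared, 483 with all libraries kept, 515 with the well column as a factor and 434 without the shallowest combination library (172700 counts). It was 776 with limma voom and sample quality weights, 340 with no filter on low counts, 329 with barcode GC as a covariate, 317 without libraries of unusual barcode GC (n = 7 combination), 299 at a minimum depth of 500000 (n = 8 against 11) and 245 after thinning to 172700 counts, a setting not combined with the covariate. With the covariate 121 were called, 198 with DESeq2, 65 with no filter and 0 at a minimum depth of 500000. In that last fit 811 of 6910 genes had an unadjusted p under 0.05 and the lowest adjusted p was 0.0671 (edgeR). The other settings gave 103 to 166. Ribosomal protein falls numbered 61 to 72 without the covariate, and with it 37 to 63 but for 0 at a minimum depth of 500000. The interaction gave 0 under each setting that holds all 4 groups. Of 90 named genes, 37 lost the call with log2 total counts, 30 without unusual barcodes, 27 with barcode GC, 21 after thinning (of 74 with a value there), 15 with no filter, 11 at the higher minimum depth and 0 to 6 under the other settings (85 genes had a value with only the 2 groups). Dld, Timp4 and Mlc1 lost it after thinning only. Among the named genes, 2 that were not called changed sign. Slco1c1 was -0.0233 with voom, -0.0272 with barcode GC, -0.0242 without unusual barcodes, -0.0407 without the shallowest library and -0.0734 with log2 total counts. Slc7a5 was -0.0418 with barcode GC, -0.0397 without unusual barcodes and -0.23 with log2 total counts. The causes were not tested. No paired analysis was possible because the hypothalamus groups compared share no animal number. The 15 untested thyroid hormone genes had too few counts at this depth.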

Other observations

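Some genes outside the lists were called in both fits, and they were picked after their values were seen. The acyl-CoA binding protein Dbi, whose fragments act on GABA-A receptors, measured 825, 1027 and 1186 CPM in combination libraries, against 1158, 1435 and 1719 CPM in vancomycin libraries, and fell by 0.48 ± 0.09 on the log2 scale (edgeR adjusted p = 0.000238; 0.00717 with log2 total counts as a covariate). Enho, which encodes the peptide adropin, measured 161, 203 and 239 CPM in combination libraries, against 209, 257 and 329 CPM in vancomycin libraries, and fell by 0.38 ± 0.08 (adjusted p = 0.00134; 0.00314 with the covariate). B2m, the light chain of class I major histocompatibility molecules, fell by 0.65 ± 0.14 (adjusted p = 0.00175), with 415, 480 and 772 CPM in combination libraries and 551, 896 and 1107 CPM in vancomycin libraries. Ddt, a relative of the cytokine Mif, had a log2 fold change of -0.58 ± 0.09 and the lowest adjusted p of these genes (0.00018; 0.00314 with the covariate), with 177, 239 and 309 CPM in combination libraries and 284, 372 and 481 CPM in vancomycin libraries. Each of the 4 overlapped between the groups. In thyroid, Ddt and B2m were lower too without the covariate (-0.50 and -0.54, adjusted p = 0.0103 and 0.037), and Enho was too low there to test.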
